A study of Mus musculus with 35 samples.

Results

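To follow how GATA6 starts the conversion of embryonic stem (ES) cells into primitive endoderm (PrE), the first 16 h of its induction were examined in 6 of the 35 mouse RNA-seq libraries of the study. Groups were taken from the sample titles, with 3 libraries of inducible ES cells before doxycycline (0 h) and 3 libraries after 16 h of doxycycline (Dox) at 1 µg/mL. Only genes whose mean reached 1 TPM at 0 h or at 16 h were kept, 13509 of the 44853 genes in the table of the induction series. A gene averaging under 1 TPM at 0 h was therefore tested only if it reached 1 TPM at 16 h. Counts of rises among chosen genes can be raised by this filter. At the edge of this filter, Bglap3 and Rell2 entered with a higher group mean of 1.0004 and 1.0005 TPM, and R3hdml and Ang stayed out with 0.998 TPM each. The values are TPM, which give the part of all transcripts in a library that comes from a gene after correction for gene length.

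Cells of both groups were KH2 ES cells, of mixed C57BL/6 and 129/Sv background, and both carried the Dox-inducible Gata6 cassette, so the untreated cells are the same line without the drug. The cassette encodes GATA6 with an HA tag, and the clone used for RNA-seq is not given in the sources used here. All cells were grown in serum and LIF on mitomycin C-treated mouse embryonic fibroblasts, which were depleted by adsorption to plastic before lysis. Dox was the only difference in treatment that the labels give. No library of cells without the cassette treated with Dox was analysed here, nor any untreated library taken at 16 h. A response to the drug, a response to GATA6 and a change with time in culture therefore cannot be told apart.

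In the blastocyst, the inner cell mass divides into the epiblast, from which ES cells are derived, and the PrE, which covers it and later forms the endoderm of the yolk sac. GATA6 is a zinc-finger transcription factor that is required for the PrE and acts ahead of SOX17, GATA4 and SOX7. PrE derivatives lay down a basement membrane of laminins and type IV collagen and take up proteins through the cubilin and megalin receptors, and the epiblast ligand FGF4 instructs PrE precursors through FGF receptors.

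The untreated cells carried the markers of ES cells, with Pou5f1 (Oct4) at 1654 TPM, Sox2 at 323 TPM and Nanog at 281 TPM on average, while Gata6, Sox17, Gata4, Sox7 and Pdgfra all averaged under 1 TPM. Between 12888 and 13080 genes reached 1 TPM in each of the 6 libraries. Pearson correlations of log2(TPM + 1) across genes were 0.982 to 0.987 between 0 h replicates, 0.985 to 0.987 between 16 h replicates and 0.964 to 0.971 between the groups. Fibroblast markers were present in both groups. The summed level of 16 such genes was 155, 107 and 248 TPM at 0 h and 239, 214 and 350 TPM at 16 h, so the groups overlapped, and replicate 3 had the most in each. All 13 of the markers tested had a positive log2 fold change, with a median of 0.56, and 0 of 13 were called by limma, with 2 of 13 at an unadjusted p under 0.05. Lum, Dcn and Fap, markers of fibroblasts, ranged from 0 to 1.05, from 0.122 to 1.77 and from 0 to 0.132 TPM and were not tested.

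Changes were measured with limma on log2(TPM + 1), a scale on which the change of weakly expressed genes is understated. Errors of log2 fold changes are standard errors of the fit, errors of TPM are SD with n = 3, and adjusted p-values are Benjamini-Hochberg values over the 13509 genes. A gene was called where the adjusted p was under 0.05 and the log2 fold change exceeded 1 in either direction, and only called genes are said to have risen or fallen. By this rule 297 genes (2.20%) rose and 121 (0.896%) fell, 418 (3.09%) in all. Without the fold minimum, 1194 genes (8.84%) were higher and 784 (5.80%) lower. Libraries of the groups did not overlap for 2702 genes (20.0%) higher at 16 h and 2036 (15.1%) lower, and for 413 of the 418 called genes. The 5 exceptions, named after their values were seen, were Gm45886, Gm960, Syt8, the ribosomal protein pseudogene Rpl30-ps9 and Ripply1.

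The rises were larger than the falls. The median ratio of mean TPM was 3.73 among genes that rose (16 h over 0 h) and 3.24 among genes that fell (0 h over 16 h), and 68 rises but 6 falls exceeded 2 on the log2 scale. Genes that rose went from 0.312 ± 0.00814% of all TPM at 0 h to 1.07 ± 0.0538% at 16 h. Genes that fell went from 0.469 ± 0.00779% to 0.184 ± 0.0105%. Both sets were chosen by their change in these same libraries, so the direction of each shift was fixed by the choice. In these bulk libraries, a uniform change in every cell and a larger change in part of the cells cannot be told apart, nor can fewer cells of a type and less RNA per cell. Under 1 TPM in all 0 h libraries and at 5 TPM or more in all 16 h libraries were 21 genes, and 0 genes showed the opposite pattern. All 21 were among the called rises, though these cutoffs already place them past the fold minimum and without overlap.

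**Figure D1:**
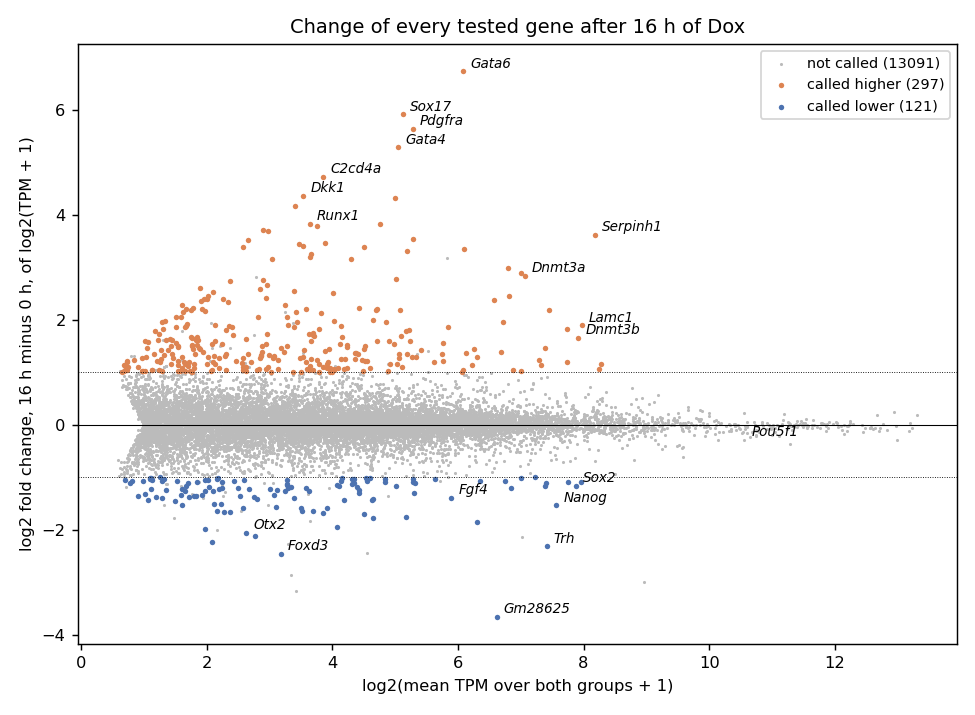
Change of the 13509 tested genes, with the log2 of the mean TPM over both groups plus 1 on the x axis and the log2 fold change of log2(TPM + 1), 16 h minus 0 h, on the y axis. The 297 genes that rose are orange, the 121 that fell are blue, dotted lines mark the fold minimum of 1, and the largest rises reach further from 0 than the largest falls.

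The induced factor, Gata6, had the largest rise of all tested genes, and several transcription factors of the PrE rose with it. Gata6 stood at 0.193, 0.223 and 0.375 TPM at 0 h and 129, 134 and 138 TPM at 16 h (log2 fold change 6.74 ± 0.09, adjusted p = 1.08e-20). The groups lay far apart, with the highest untreated library under 1 TPM. The gene-level value does not separate transcripts of the cassette from those of the endogenous gene. Of 12 listed PrE factors, 8 were tested and 5 rose (against 2.20% of all genes), 0 fell and the median log2 fold change of the 8 was 2.75, against 0.02 over all genes. The 5 that rose averaged under 1 TPM at 0 h and passed the filter only through their 16 h level. Listed factors that stayed low at both times were left out by the same filter. The count and the median are therefore not comparable with those of all genes.

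Sox17 (chr1:4490931-4497354, mm10), encoding an HMG-box factor of the endoderm, stood at 0.102, 0.132 and 0.172 TPM at 0 h and 68.4, 60.9 and 74.2 TPM at 16 h (log2 fold change 5.92 ± 0.18, adjusted p = 2.7e-14). Gata4 (chr14:63198922-63271692), the second GATA factor of the PrE, stood at 0.599, 0.954 and 0.436 TPM at 0 h and 62.1, 62.4 and 65.7 TPM at 16 h (log2 fold change 5.29 ± 0.12, adjusted p = 1.89e-16). Both were under 1 TPM in every untreated library, and the lowest induced library held 60.9 TPM. Lower levels were reached by the other 3. Foxq1, a forkhead factor, rose from 0.112 to 19.03 TPM (log2 fold change 4.17 ± 0.14, adjusted p = 4.74e-14). Sox7, the relative of Sox17, rose from 0.667 to 13.7 TPM and its 16 h libraries spanned only 13.5 to 13.8 TPM (log2 fold change 3.15 ± 0.20, adjusted p = 8.64e-10). Foxa2, a forkhead factor of the endoderm, was the lowest of the 5 with 0.213, 0.102 and 0.375 TPM at 0 h and 6.48, 4.93 and 4.53 TPM at 16 h (log2 fold change 2.35 ± 0.24, adjusted p = 9.03e-07).

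The other listed PrE factors had not passed the test at 16 h. Hhex averaged 4.49 ± 0.105 TPM at 0 h and 4.68 ± 0.643 TPM at 16 h, Foxa3 1.28 ± 0.0562 TPM at 0 h and 1.63 ± 0.381 TPM at 16 h and Nr2f2 1.16 ± 0.856 TPM at 0 h and 0.5003 ± 0.1498 TPM at 16 h. Gata5, Foxa1, Hnf4a and Nr2f1 stayed under the filter, and their highest value in any of the 6 libraries was 0.932 TPM, for Foxa1. Hnf4a, a nuclear receptor of visceral endoderm, was at most 0.0710 TPM.

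**Figure D2:**
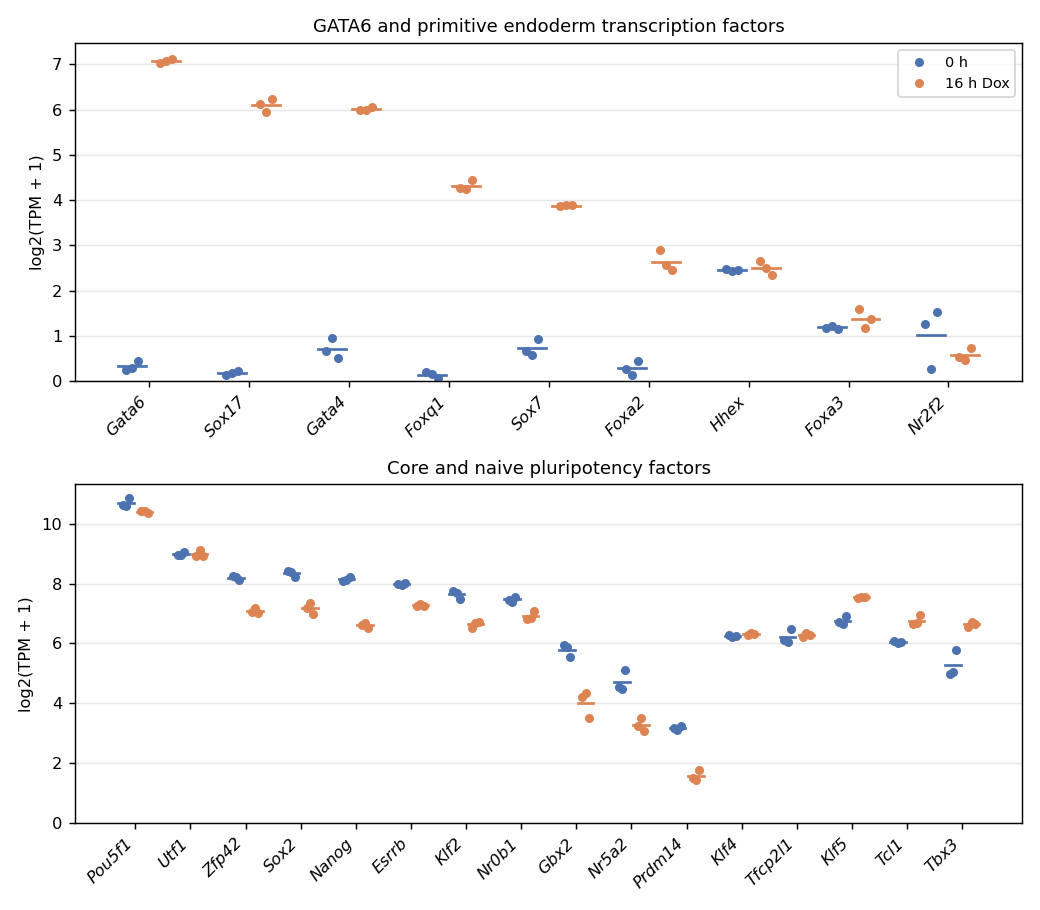
Level of each factor as log2(TPM + 1) on the y axis in the 3 libraries at 0 h (blue points) and the 3 at 16 h of Dox (orange points), with lines at the group means. Gata6 and 5 PrE factors lie near 0 in all untreated libraries and well above them after Dox, while pluripotency factors divide into those that are lower, such as Nanog and Prdm14, those at the same height, such as Utf1 and Klf4, and those that are higher, such as Tbx3.

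Of 5 tested genes of the GATA and FOG family other than Gata6, 3 rose (against 2.20% of all genes) and 0 fell, and these were Gata4, Zfpm1 and Gata1. Gata4 and Gata1 averaged under 1 TPM at 0 h and passed the filter only through their 16 h level. Zfpm1 (FOG1), a zinc-finger partner of GATA factors, stood at 3.62, 2.71 and 2.65 TPM at 0 h and 34.2, 35.1 and 33.6 TPM at 16 h (log2 fold change 3.15 ± 0.14, adjusted p = 8.69e-12), without overlap between the groups. Gata1, the erythroid GATA factor, rose from 0.799 to 4.48 TPM (log2 fold change 1.61 ± 0.18, adjusted p = 3.28e-06), a low level beside that of Gata4. Gata2 averaged 3.75 ± 1.58 TPM at 0 h and 5.16 ± 0.612 TPM at 16 h and Trps1, an atypical GATA repressor, 3.495 ± 0.336 TPM at 0 h and 2.69 ± 0.242 TPM at 16 h, and neither passed the test (adjusted p = 0.435 and adjusted p = 0.0753, respectively). Gata3, Gata5 and Zfpm2 remained under the filter.

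Part of the pluripotency network fell. Of 6 core factors, Nanog and Sox2 fell (against 0.896% of all genes) and 4 were not called. Nanog, a homeobox factor that opposes GATA6, stood at 268, 278 and 298 TPM at 0 h and 96.6, 102 and 89.999 TPM at 16 h (log2 fold change -1.54 ± 0.22, adjusted p = 4.34e-05). Sox2, the HMG-box partner of Oct4, stood at 341, 332 and 296 TPM at 0 h and 146, 162 and 126 TPM at 16 h (log2 fold change -1.16 ± 0.20, adjusted p = 0.000375). For both genes every induced library was below every untreated one, yet the lowest induced library still held 89.999 TPM of Nanog and 126 TPM of Sox2.

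Pou5f1, which encodes Oct4, stood at 1572, 1558 and 1833 TPM at 0 h and 1382, 1370.1 and 1304 TPM at 16 h and was not called (log2 fold change -0.29 ± 0.25, adjusted p = 0.538). Its groups did not overlap, and a fit on the 6 libraries alone gave an adjusted p of 0.0278 with a change under the fold minimum. Utf1, an ES chromatin factor, averaged 508 ± 23.1 TPM at 0 h and 510.4 ± 44.8 TPM at 16 h, and Sall4, a zinc-finger factor, 99.96 ± 6.49 TPM at 0 h and 112 ± 4.33 TPM at 16 h.

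Among 12 naive pluripotency factors, 5 fell (against 0.896% of all genes), 1 rose (against 2.20%) and 6 were not called. Prdm14, a PR-domain factor that guards the naive state, fell from 8.02 to 1.99 TPM (log2 fold change -1.597 ± 0.21, adjusted p = 2.04e-05), and Gbx2, a homeobox factor downstream of LIF, from 54.7 to 15.8 TPM (log2 fold change -1.77 ± 0.18, adjusted p = 8.26e-07). Nr5a2, a nuclear receptor, stood at 22.4, 21.3 and 33.6 TPM at 0 h and 8.58, 10.4 and 7.49 TPM at 16 h (log2 fold change -1.43 ± 0.19, adjusted p = 2.61e-05). Zfp42 (Rex1), a zinc-finger marker of naive cells, fell from 292 to 136 TPM (log2 fold change -1.096 ± 0.09, adjusted p = 2.32e-08). Klf2, a Krüppel-like factor, fell from 199 to 98.8 TPM (log2 fold change -1.001 ± 0.27, adjusted p = 0.0153), at the edge of the fold minimum, and its call was lost without replicate 1 or 2 of 0 h (adjusted p = 0.0582 and 0.0512) or replicate 1 of 16 h (adjusted p = 0.0576). Tbx3, a T-box factor active in both ES cells and PrE, moved the other way, at 30.4, 31.9 and 54.5 TPM at 0 h and 92.8, 104 and 98.8 TPM at 16 h (log2 fold change 1.37 ± 0.19, adjusted p = 3.38e-05).

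The remaining naive factors were not called. Esrrb, an orphan nuclear receptor, averaged 253 ± 4.44 TPM at 0 h and 155 ± 4.26 TPM at 16 h (log2 fold change -0.70 ± 0.29, adjusted p = 0.12). Its libraries did not overlap, and the fit on the 6 libraries alone gave an adjusted p of 8.55e-05 with a change under the fold minimum. Klf5 (log2 fold change 0.79 ± 0.09, adjusted p = 2.29e-06) and Tcl1 (log2 fold change 0.72 ± 0.17, adjusted p = 0.00576) were higher by the adjusted p but under the fold minimum. Klf4 averaged 75.6 ± 2.02 TPM at 0 h and 78.3 ± 2.06 TPM at 16 h and Tfcp2l1, a CP2-family factor, 73.6 ± 12.1 TPM at 0 h and 77.1 ± 2.87 TPM at 16 h, with overlapping groups.

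Of 16 other genes typical of ES cells, 3 fell (against 0.896% of all genes) and 0 rose. Trh, encoding the precursor of thyrotropin-releasing hormone, had the largest loss of TPM of any called gene, at 265, 287 and 296 TPM at 0 h and 56.3, 63.4 and 48.6 TPM at 16 h (log2 fold change -2.32 ± 0.24, adjusted p = 1.07e-06). Tdh, the mitochondrial threonine dehydrogenase on which mouse ES cells depend, fell from 339 to 159 TPM (log2 fold change -1.08 ± 0.26, adjusted p = 0.00648), and was at -0.99 without replicate 3 of 0 h. Fgf4 is described with its receptors. Tdgf1, the Nodal co-receptor, and Eras, an ES-specific RAS, were lower by the adjusted p but under the fold minimum (log2 fold change -0.95 ± 0.31, adjusted p = 0.048 and log2 fold change -0.92 ± 0.21, adjusted p = 0.00551, respectively). Dppa5a, among the most abundant ES transcripts, averaged 6163 ± 125 TPM at 0 h and 5928 ± 316 TPM at 16 h, and Dnmt3l, a cofactor of de novo methylation, 449 ± 28.9 TPM at 0 h and 470.4 ± 40.7 TPM at 16 h.

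Genes of the formative epiblast, the state that ES cells enter on leaving naive pluripotency, split. Of 14 tested, 3 fell and 2 rose (against 0.896% and 2.20% of all genes). Foxd3, a forkhead factor, stood at 13.5, 12.6 and 16.96 TPM at 0 h and 1.38, 2.18 and 1.84 TPM at 16 h (log2 fold change -2.46 ± 0.15, adjusted p = 5.18e-10), and Otx2, a homeobox factor that drives the formative state, at 10.6, 8.99 and 7.37 TPM at 0 h and 1.68, 1.28 and 1.18 TPM at 16 h (log2 fold change -2.06 ± 0.15, adjusted p = 7.68e-09). No induced library was above 2.18 TPM and no untreated one under 7.37 TPM for either gene. Zic2 fell from 1.902 to 0.439 TPM (log2 fold change -1.02 ± 0.20, adjusted p = 0.00148), and dropped under the fold minimum without replicate 1 of 0 h (-0.97) or replicate 3 of 16 h (-0.92).

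In contrast, the de novo DNA methyltransferases rose. Dnmt3a (chr12:3806007-3914443) stood at 37.7, 36.2 and 23.3 TPM at 0 h and 243, 235 and 223 TPM at 16 h (log2 fold change 2.84 ± 0.16, adjusted p = 9.91e-11) and Dnmt3b (chr2:153649450-153687730) at 115, 112 and 119 TPM at 0 h and 360.1, 351 and 384 TPM at 16 h (log2 fold change 1.66 ± 0.20, adjusted p = 8.71e-06). For both genes the groups lay far apart, with the lowest induced library above the highest untreated one. The other 6 enzymes and cofactors of DNA methylation were not called, with Dnmt1, the maintenance enzyme, at 102 ± 2.31 TPM at 0 h and 94.7 ± 5.65 TPM at 16 h, Uhrf1 at 196 ± 6.32 TPM at 0 h and 189.5 ± 5.46 TPM at 16 h and Tet1 at 161 ± 13.9 TPM at 0 h and 133 ± 10.8 TPM at 16 h. Fgf5, the usual marker of formative cells, stayed under the filter, with at most 0.629 TPM.

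Other large falls lay outside these lists. Gm28625, a predicted gene, had the largest fall, but its libraries spanned 248, 134 and 112 TPM at 0 h and 31.4, 0 and 57.3 TPM at 16 h (log2 fold change -3.66 ± 1.17, adjusted p = 0.044), and the call was lost with the 6 libraries alone (adjusted p = 0.26), without any 1 of the 0 h libraries (adjusted p = 0.133, 0.0943 and 0.0618) and without replicate 2 of 16 h (log2 fold change -1.84). Apela, encoding a secreted peptide ligand of the apelin receptor, fell from 38.2 to 10.2 TPM (log2 fold change -1.78 ± 0.20, adjusted p = 2.32e-06). Morc1, a silencer of transposons in germ cells, fell from 33.7 to 9.64 TPM (log2 fold change -1.69 ± 0.20, adjusted p = 5.35e-06), Ephx2, the soluble epoxide hydrolase, from 21.1 to 5.78 TPM, Tgm3, a transglutaminase, from 5.41 to 0.4698 TPM, and Neurod1, a neuronal bHLH factor, from 6.47 to 1.17 TPM. Accsl and Myo1f, an unconventional myosin, fell by 1.94 and 1.66 on the log2 scale. The predicted genes 1700097N02Rik, Gm26564 and Gm46332 fell by 2.23, 2.12 and 1.85.

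The largest gains of TPM included genes of the basement membrane and of collagen processing. Of 12 basement membrane genes, 7 rose (against 2.20% of all genes) and 0 fell. Of 7 genes for collagen processing, 2 rose, 0 fell and all 7 had an adjusted p under 0.05 with a positive change (against 8.84%). Serpinh1 (chr7:99345376-99353239), the collagen chaperone HSP47, stood at 40.3, 36.7 and 51.3 TPM at 0 h and 519, 505 and 580.02 TPM at 16 h (log2 fold change 3.62 ± 0.12, adjusted p = 5.13e-14). This was the largest gain of TPM of any called gene.

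Col4a1 and Col4a2, the 2 chains of the main type IV collagen, share a divergent promoter region, with annotated starts 21 bp apart. Col4a1 (chr8:11198423-11312826) stood at 10.4, 11.2 and 12.04 TPM at 0 h and 128, 110.3 and 132 TPM at 16 h (log2 fold change 3.35 ± 0.13, adjusted p = 1.27e-12). Col4a2 (chr8:11312805-11449287) stood at 5.45, 4.04 and 7.88 TPM at 0 h and 62.5, 59.9 and 73.1 TPM at 16 h (log2 fold change 3.32 ± 0.17, adjusted p = 5.25e-11). The log2 fold changes of the pair were nearly equal, and Col4a1 had the higher level in every library.

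The 3 chains of laminin-111 all rose. Lamb1 stood at 29.5, 31.1 and 27.8 TPM at 0 h and 218, 207 and 254 TPM at 16 h (log2 fold change 2.897 ± 0.13, adjusted p = 6.85e-12). Lama1 rose from 33.7 to 188 TPM (log2 fold change 2.45 ± 0.13, adjusted p = 6.59e-11) and Lamc1 from 105 to 394 TPM (log2 fold change 1.898 ± 0.11, adjusted p = 3.63e-10). No induced library was below 169 TPM for any of the 3 chains, and no untreated library was above 119 TPM. Sparc, a collagen-binding matrix protein, rose from 98.3 to 325 TPM (log2 fold change 1.82 ± 0.23, adjusted p = 1.22e-05), and Hspg2, the heparan sulfate proteoglycan perlecan, from 83.7 to 170.4 TPM (log2 fold change 1.01 ± 0.10, adjusted p = 6.24e-07), just past the fold minimum and under it without replicate 1 of 0 h (0.97), or replicate 2 (0.99) or 3 (0.98) of 16 h. Nid1 (log2 fold change 0.84 ± 0.13, adjusted p = 0.000142) and Lama5 (log2 fold change 0.72 ± 0.17, adjusted p = 0.0048) were under that minimum, and Nid2, Lamb2 and Agrn did not pass the test. Plod2, a lysyl hydroxylase of collagen telopeptides, rose from 24.3 to 88.9 TPM (log2 fold change 1.86 ± 0.20, adjusted p = 1.59e-06). The prolyl hydroxylase subunits P4ha1 and P4ha2 had log2 fold changes of 0.91 ± 0.17 and 0.87 ± 0.14, under the fold minimum.

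Fibroblasts also make these matrix proteins, and the fibroblast markers summed to 107 to 248 TPM at 0 h and 214 to 350 TPM at 16 h. With a fibroblast score as a covariate, the log2 fold change was 3.41 for Col4a1, 2.98 for Lamb1, 3.62 for Serpinh1 and 1.81 for Sparc, and Hspg2 was at 0.99. Without replicate 3 of both groups, where fibroblast markers were highest, the values were 3.34, 2.77, 3.70 and 2.13 for the first 4 genes and 1.02 for Hspg2.

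**Figure D3:**
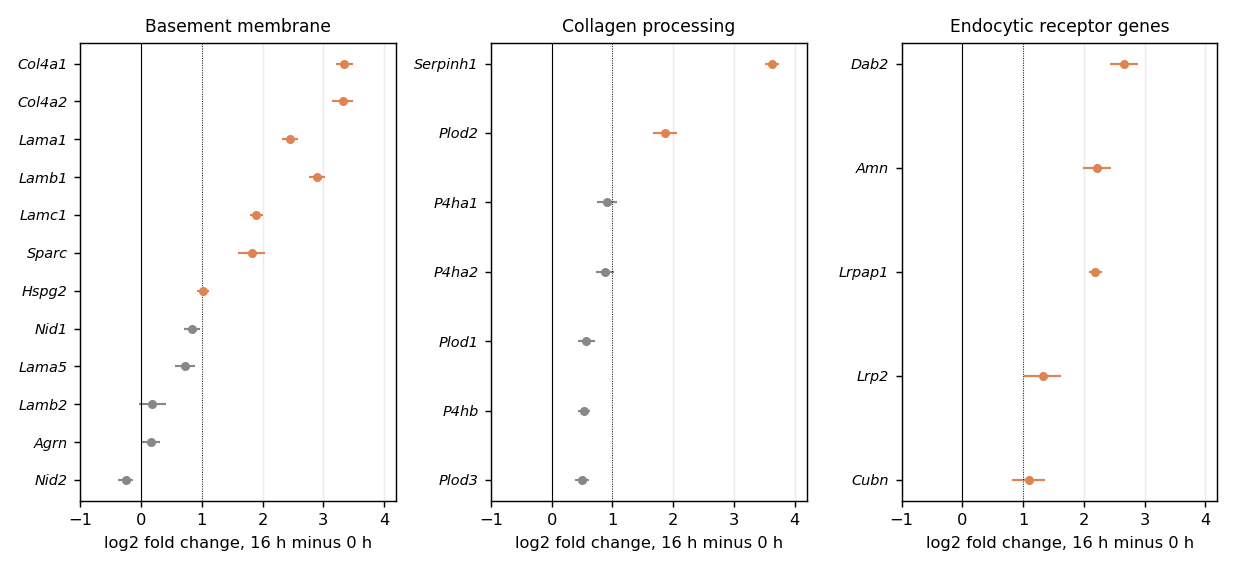
Log2 fold change at 16 h against 0 h (x axis) with its standard error (bars) for the genes of the basement membrane, of collagen processing and of the endocytic receptors. Genes called higher are orange and the others grey, dotted lines mark the fold minimum of 1, and all 5 endocytic genes, 7 of 12 basement membrane genes and 2 of 7 collagen processing genes lie past it.

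The 5 genes of the endocytic receptor complex rose (against 2.20% of all genes), though from very different levels. Lrpap1, the chaperone of the LRP receptors, was abundant, with 58.1, 61.7 and 66.9 TPM at 0 h and 291, 282 and 289 TPM at 16 h (log2 fold change 2.19 ± 0.11, adjusted p = 2.37e-11). Dab2 (chr15:6299788-6440712), the clathrin adaptor of megalin, stood at 0.985, 1.24 and 1.17 TPM at 0 h and 11.5, 13.6 and 12.3 TPM at 16 h (log2 fold change 2.66 ± 0.23, adjusted p = 7.84e-08). Amn, the membrane partner of cubilin, rose from 3.27 to 18.7 TPM (log2 fold change 2.21 ± 0.23, adjusted p = 1.37e-06). The receptors themselves were low. Lrp2 (megalin) rose from 3.61 to 10.4 TPM (log2 fold change 1.32 ± 0.31, adjusted p = 0.00576), and Cubn (cubilin) stood at 0.0812, 0.0812 and 0.0406 TPM at 0 h and 1.01, 1.19 and 1.67 TPM at 16 h (log2 fold change 1.09 ± 0.27, adjusted p = 0.00903). Cubn was under the filter at 0 h and close to it at 16 h, and fell under the fold minimum without replicate 3 of 16 h (0.97).

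Secreted plasma carriers of the yolk sac gave no calls at 16 h. Of 12 listed, 6 were tested and 0 were called in either direction by limma, with 1 of the 6 at an unadjusted p under 0.05. Ttr was listed at 0 in all 6 libraries, Alb reached at most 0.0609 TPM and Afp at most 0.284 TPM. Apoe, a lipid carrier that ES cells already express, averaged 730.2 ± 59.2 TPM at 0 h and 888 ± 141 TPM at 16 h. Of 11 other tested genes of PrE and XEN cells (an extra-embryonic endoderm line), 5 rose (against 2.20% of all genes). Besides Pdgfra, Dkk1 and Cdh2, described with their pathways, these were Podxl, a sialomucin of apical membranes, which stood at 7.47, 8.18 and 6.16 TPM at 0 h and 55.9, 54.2 and 55.99 TPM at 16 h (log2 fold change 2.78 ± 0.09, adjusted p = 4.33e-14), and Srgn, the proteoglycan serglycin, at 0.264, 0.294 and 0.0913 TPM at 0 h and 3.69, 1.34 and 3.63 TPM at 16 h (log2 fold change 1.61 ± 0.31, adjusted p = 0.00135). Pdgfra, Dkk1 and Srgn averaged under 1 TPM at 0 h and passed the filter only through their 16 h level. The share of 5 in 11 is therefore not comparable with that of all genes. Aqp8, a water channel, was at most 0.102 TPM before Dox and averaged 1.55 TPM at 16 h. It was called in the fit on 6 libraries (adjusted p = 0.00121) but not in the limma fit on all libraries (adjusted p = 0.0652).

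Among FGF ligands some rose and some fell, while both receptors that were called rose. Of 8 ligands and receptors tested, 4 rose and 2 fell (against 2.20% and 0.896%). Of the 4 that rose, Fgfr3 averaged under 1 TPM at 0 h and passed the filter only through its 16 h level. Fgf4 (chr7:144847367-144865243), the FGF that epiblast cells secrete, stood at 91.1, 90.6 and 73.6 TPM at 0 h and 32.2, 33.4 and 29.4 TPM at 16 h (log2 fold change -1.39 ± 0.22, adjusted p = 0.000193). Fgf15, an endocrine FGF, fell from 12.4 to 5.12 TPM (log2 fold change -1.13 ± 0.17, adjusted p = 9.32e-05) and was at -0.94 without replicate 3 of 16 h. By contrast, Fgf3 (chr7:144838083-144844436), which lies beside them on the chromosome, stood at 1.56, 1.797 and 1.06 TPM at 0 h and 24.1, 20.9 and 20.1 TPM at 16 h (log2 fold change 3.21 ± 0.19, adjusted p = 4.38e-10). Fgf10, better known as a mesenchymal ligand, stood at 0.599, 0.731 and 1.86 TPM at 0 h and 20.3, 19.6 and 20.7 TPM at 16 h (log2 fold change 3.41 ± 0.20, adjusted p = 2.71e-10). In every induced library the sum of Fgf3 and Fgf10 was above the level of Fgf4.

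Fgfr2, a receptor of PrE precursors, stood at 20.7, 17.96 and 8.95 TPM at 0 h and 50.8, 47.4 and 65.3 TPM at 16 h (log2 fold change 1.78 ± 0.21, adjusted p = 5.27e-06), with replicate 3 the lowest at 0 h and the highest at 16 h. Fgfr3 rose from 0.843 to 5.93 TPM (log2 fold change 1.91 ± 0.22, adjusted p = 3.21e-06). Fgfr1, the most abundant FGF receptor before Dox, averaged 29.6 ± 0.413 TPM at 0 h and 25.01 ± 0.771 TPM at 16 h and did not pass the test (adjusted p = 0.339). Fgfr2 was thus the lower of the pair at 0 h and the higher at 16 h.

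The feedback inhibitors and targets of ERK gave no common direction. Of 17, 2 rose (against 2.20% of all genes), 0 fell and 15 were not called, and their median log2 fold change was -0.16. Dusp4, a nuclear MAP kinase phosphatase, stood at 11.9, 10.97 and 10.6 TPM at 0 h and 52.4, 50.6 and 60.3 TPM at 16 h (log2 fold change 2.19 ± 0.14, adjusted p = 1.29e-09), and Phlda1, an ERK target, rose from 9.49 to 38.7 TPM (log2 fold change 1.997 ± 0.20, adjusted p = 5.5e-07). Spry2 (log2 fold change 0.95 ± 0.15, adjusted p = 0.000185) and Myc (log2 fold change 0.998 ± 0.14, adjusted p = 5.67e-05) were just under the fold minimum. Dusp6 (log2 fold change -0.63 ± 0.18, adjusted p = 0.0239) and Etv5 (log2 fold change -0.50 ± 0.12, adjusted p = 0.00962), both classical readouts of ERK activity, were lower by the adjusted p but not by enough to be called.

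Pdgfra (chr5:75152292-75198215), the receptor used as a surface marker of PrE, stood at 0.406, 0.254 and 1.005 TPM at 0 h and 79.7, 75.2 and 70.6 TPM at 16 h (log2 fold change 5.64 ± 0.15, adjusted p = 1.97e-15). Its ligand gene Pdgfc, expressed by the ES cells, fell from 26.3 to 12.3 TPM (log2 fold change -1.03 ± 0.13, adjusted p = 1.75e-05), and was at -0.99 without replicate 3 of 16 h. Pdgfa, also a ligand, was under the fold minimum (log2 fold change -0.83 ± 0.16, adjusted p = 0.00144). The ligand genes Pdgfb and Pdgfd stayed under the filter, with group means of at most 0.953 TPM.

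**Figure D4:**
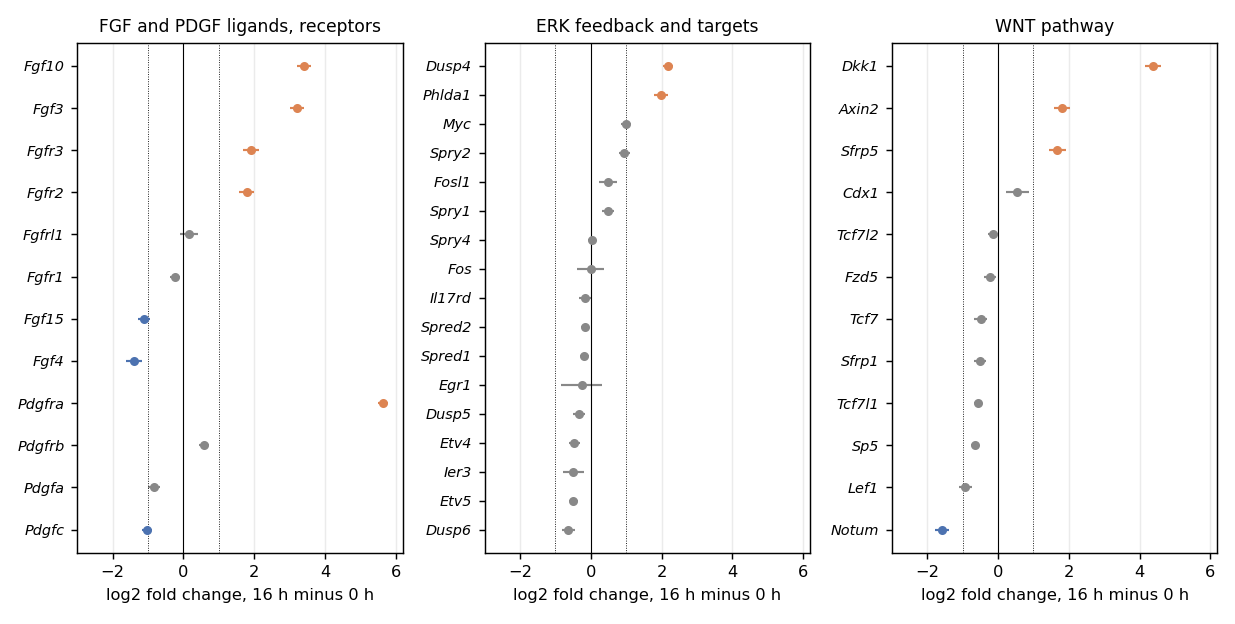
Log2 fold change at 16 h against 0 h (x axis) with its standard error (bars) for tested genes of the FGF and PDGF pathways, of ERK feedback and of the WNT pathway. Orange genes were called higher, blue genes lower and grey genes were not called; Pdgfra, Dkk1, Fgf10 and Fgf3 lie furthest to the right and Notum and Fgf4 furthest to the left.

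In the WNT pathway list, 3 of 12 tested genes rose and 1 fell (against 2.20% and 0.896% of all genes), and all 4 encode inhibitors of the pathway. Of the 3 that rose, Dkk1 and Sfrp5 averaged under 1 TPM at 0 h and passed the filter only through their 16 h level. The share of rises in the list is therefore not comparable with that of all genes. Outside this list and named after its values were seen, the WNT ligand gene Wnt6 rose from 0.961 to 3.33 TPM (log2 fold change 1.16 ± 0.20, adjusted p = 0.000406). Dkk1 (chr19:30545863-30549665), a secreted inhibitor of the LRP co-receptors, stood at 0.0609, 0.132 and 0.0304 TPM at 0 h and 22.9, 20.4 and 20.2 TPM at 16 h (log2 fold change 4.37 ± 0.23, adjusted p = 4.72e-11). Sfrp5, a secreted WNT-binding inhibitor, rose from 0.595 to 4.12 TPM (log2 fold change 1.68 ± 0.24, adjusted p = 4.43e-05). Axin2, a target and feedback inhibitor of the pathway, stood at 3.59, 3.84 and 8.84 TPM at 0 h and 20.99, 20.98 and 18.8 TPM at 16 h (log2 fold change 1.82 ± 0.23, adjusted p = 1.27e-05), while Notum, a secreted enzyme that inactivates WNT ligands and is also a target, stood at 20.7, 18.2 and 9.599 TPM at 0 h and 3.46, 5.37 and 4.79 TPM at 16 h (log2 fold change -1.58 ± 0.20, adjusted p = 1.56e-05). The targets Lef1 (log2 fold change -0.93 ± 0.18, adjusted p = 0.00129) and Sp5, and the repressor Tcf7l1, were lower by the adjusted p but under the fold minimum.

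Other signalling lists gave few or no calls. Among 10 Nodal, 11 BMP and 9 LIF pathway genes, 0 were called in either direction by limma, and by the adjusted p alone 0, 1 and 1 were higher and 4, 1 and 1 were lower. At an unadjusted p under 0.05 there were 4, 4 and 3 genes, respectively. These counts hold for the listed genes only, and the BMP ligand genes Bmp6 and Bmp8a, outside the list, rose and are described below. Nodal itself averaged 36.4 ± 5.12 TPM at 0 h and 18.9 ± 4.204 TPM at 16 h (log2 fold change -0.93 ± 0.17, adjusted p = 0.000892), and Id3, a BMP target, 31.2 ± 11.1 TPM at 0 h and 56.04 ± 6.12 TPM at 16 h (log2 fold change 0.87 ± 0.18, adjusted p = 0.0024). Leaving out 1 library took Nodal past the fold minimum in 3 cases (-1.05, -1.01 and -1.03, without replicate 3 of 0 h, replicate 1 of 16 h and replicate 2 of 16 h). In the retinoid pathway 2 of 9 genes rose (against 2.20% of all genes). Of the 2, Cyp26a1 averaged under 1 TPM at 0 h and passed the filter only through its 16 h level. Aldh1a3, which makes retinoic acid, rose from 1.21 to 6.69 TPM (log2 fold change 1.803 ± 0.14, adjusted p = 2.69e-08), and Cyp26a1, which degrades it, from 0.156 to 3.85 TPM (log2 fold change 2.06 ± 0.47, adjusted p = 0.00464). The receptors Rara and Rarg were lower by the adjusted p but under the fold minimum (-0.81 ± 0.14 and -0.89 ± 0.19).

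Genes of other lineages in which GATA factors act were also looked at. Of 10 blood genes, 3 passed the filter, and these 3 rose. Each averaged under 1 TPM at 0 h and passed the filter only through its 16 h level. Their share is therefore not comparable with the 2.20% of all genes that rose. Runx1, a factor of definitive blood, stood at 0.325, 0.376 and 1.38 TPM at 0 h and 20.4, 22.1 and 24.4 TPM at 16 h (log2 fold change 3.83 ± 0.18, adjusted p = 1.22e-11), Lmo2, a bridging protein of GATA1 complexes, rose from 0.277 to 6.297 TPM (log2 fold change 2.52 ± 0.19, adjusted p = 9.01e-09), and the third is Gata1. The other 7 genes of the list, including Tal1, Klf1, Spi1 and the embryonic globins, stayed under the filter. Of cardiac genes 3 of 11 were tested and 0 called by limma (2 at an unadjusted p under 0.05), of which Nkx2-5, a cardiac homeobox factor, was higher by the adjusted p but under the fold minimum, with 0.196 ± 0.0827 TPM at 0 h and 1.26 ± 0.224 TPM at 16 h (log2 fold change 0.92 ± 0.18, adjusted p = 0.00113). Outside the list and named after their values were seen, Tnni3, the cardiac troponin I, rose from 5.28 to 17.96 TPM (log2 fold change 1.599 ± 0.17, adjusted p = 1.08e-06), and Nppb, encoding the natriuretic peptide BNP, from 1.48 to 6.02 TPM (log2 fold change 1.54 ± 0.22, adjusted p = 4.99e-05). Of 13 mesendoderm genes 2 were tested and 0 called by limma. One of these, Gsc, was higher by the adjusted p (0.00013) but under the fold minimum. Its libraries did not overlap, with 0.105 ± 0.133 TPM at 0 h and 1.11 ± 0.143 TPM at 16 h. Of the 4 tested neural genes 0 were called by limma (3 at an unadjusted p under 0.05), and Olig2 was lower by the adjusted p (log2 fold change -0.87 ± 0.10, adjusted p = 4.28e-06).

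Among 14 trophectoderm genes, 4 of the 7 tested rose (against 2.20% of all genes), and these are shared with other epithelia. Krt8, a keratin of simple epithelia, stood at 9.09, 7.01 and 6.63 TPM at 0 h and 24.2, 24.9 and 29.1 TPM at 16 h (log2 fold change 1.66 ± 0.10, adjusted p = 4.38e-10). Its partner Krt18 rose from 7.48 to 16.5 TPM (log2 fold change 1.04 ± 0.15, adjusted p = 8.12e-05), and was under the fold minimum without replicate 3 of 0 h (0.93) or of 16 h (0.87). Elf3, an epithelial ETS factor, rose from 22.5 to 56.3 TPM (log2 fold change 1.29 ± 0.12, adjusted p = 1.76e-07) and Ascl2, a bHLH factor of placenta and gut, from 3.11 to 9.4003 TPM (log2 fold change 1.33 ± 0.20, adjusted p = 9.35e-05). The defining factors Cdx2, Gata3, Elf5 and Hand1 stayed under 1 TPM in all 6 libraries.

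Of 15 adhesion genes, 4 rose (against 2.20% of all genes). Apart from the keratins, these were Cdh2 (N-cadherin), which stood at 2.55, 2.31 and 3.77 TPM at 0 h and 9.92, 10.3 and 9.38 TPM at 16 h (log2 fold change 1.503 ± 0.22, adjusted p = 7.38e-05), and Snai1, a repressor of epithelial genes, which rose from 3.59 to 8.37 TPM (log2 fold change 1.04 ± 0.17, adjusted p = 0.000289) and was under the fold minimum without replicate 2 of 0 h (0.93) or replicate 3 of 16 h (0.99). Cdh1 (E-cadherin), which ES cells and PrE both use, averaged 142 ± 18.6 TPM at 0 h and 159 ± 3.24 TPM at 16 h and was not called (adjusted p = 0.435).

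Housekeeping functions gave no calls. In 21 cell cycle genes, 13 chromatin genes, 8 survival genes, 16 stress genes and 12 reference genes, 0 were called in either direction by limma, and 4, 3, 4, 8 and 4 of them had an unadjusted p under 0.05. By the adjusted p alone, 2 chromatin genes were lower, 2 survival genes higher and 1 lower, 3 stress genes higher and 2 reference genes higher, and 0 cell cycle genes passed. Mki67, a marker of proliferating cells, averaged 53.3 ± 5.16 TPM at 0 h and 58.99 ± 2.39 TPM at 16 h, Ezh2, the Polycomb methyltransferase, 126 ± 8.07 TPM at 0 h and 114 ± 4.04 TPM at 16 h, and Actb, the cytoskeletal actin, 1384 ± 122 TPM at 0 h and 1371 ± 85.8 TPM at 16 h. Of the survival genes, Akt1, a kinase downstream of growth factor receptors, had the largest change (log2 fold change 0.88 ± 0.11, adjusted p = 1.68e-05), under the fold minimum, and Mcl1, a BCL2 relative, was lower (log2 fold change -0.57 ± 0.09, adjusted p = 0.000108). Among the stress genes that passed the adjusted p, Hspa5, the main chaperone of the endoplasmic reticulum, had the largest change (log2 fold change 0.70 ± 0.14, adjusted p = 0.00174).

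In terms of transcript mass, the largest gains among called genes after Serpinh1 were those of Lamc1, Dnmt3b, Epop, Sparc, Lrpap1, Fabp3, Dnmt3a, Lamb1 and Calcoco2. Epop, a partner of Polycomb repressive complex 2, stood at 181, 173 and 219.98 TPM at 0 h and 434, 436 and 407 TPM at 16 h (log2 fold change 1.15 ± 0.11, adjusted p = 3.1e-07), and Calcoco2, an autophagy receptor, at 18.2, 18.8 and 38.9 TPM at 0 h and 189, 188 and 208 TPM at 16 h (log2 fold change 2.98 ± 0.25, adjusted p = 5.05e-08). Fabp3, a fatty acid carrier, rose from 199 to 409 TPM, but its untreated libraries were uneven and it was under the fold minimum without replicate 3 of 0 h (0.80) or of 16 h (0.92). The largest losses were those of Trh, Nanog, Tdh, Sox2, Zfp42, Gm28625, Igfbp2, Hmces, Klf2 and Gm46332. Igfbp2, which binds insulin-like growth factors, fell from 231 to 102 TPM (log2 fold change -1.16 ± 0.20, adjusted p = 0.00032), and Hmces, which protects abasic sites in DNA, from 231 to 106 TPM (log2 fold change -1.12 ± 0.13, adjusted p = 7.2e-06).

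Among the largest rises outside the lists, C2cd4a stood at 0.0609, 0 and 0.101 TPM at 0 h and 27.1, 29.7 and 23.9 TPM at 16 h (log2 fold change 4.72 ± 0.36, adjusted p = 1.26e-08). Amot (angiomotin), a junctional scaffold of the Hippo pathway, stood at 2.57, 2.03 and 1.56 TPM at 0 h and 56.9, 56.4 and 66.02 TPM at 16 h (log2 fold change 4.32 ± 0.16, adjusted p = 3.22e-13). For both, the lowest induced library was far above the highest untreated one. Cpn1, the catalytic subunit of carboxypeptidase N, rose from 2.54 to 49.4 TPM (log2 fold change 3.83 ± 0.15, adjusted p = 6.53e-13), and Nrg2, a ligand of ERBB receptors, from 0.839 to 24.3 TPM (log2 fold change 3.78 ± 0.14, adjusted p = 3.37e-13). Slc26a10, of the SLC26 anion transporter family, rose from 5.22 to 71.2 TPM (log2 fold change 3.54 ± 0.28, adjusted p = 2.69e-08). Gip, the intestinal hormone gene, stood at 0, 0.365 and 0.0203 TPM at 0 h and 10.7, 13.3 and 17.1 TPM at 16 h (log2 fold change 3.695 ± 0.24, adjusted p = 1.22e-09).

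Genes that rose often lay beside each other. Using gene starts from GENCODE M21, 48 of 292 annotated genes that rose (16.4%) had another risen gene with its start within 50 kb, against 290 of 12938 other tested genes (2.24%). For genes that fell, 10 of 121 (8.26%) had a fallen neighbour, against 104 of 13109 (0.793%). This count was chosen after the values were seen and is given without a test. Some of the risen neighbours, such as Hmx2, Hmx3, Igf2os and Gm42802, averaged under 1 TPM at 0 h. They passed the filter only through their 16 h level, so the share for rises can be raised by the filter. Besides Col4a1 and Col4a2, pairs that rose included Krt8 and Krt18, Efna3 and Efna4, the homeobox genes Hmx2 and Hmx3, Gdpd5 and Serpinh1, and Pdgfra with the predicted gene Gm42802. Dnmt3b and Dnmt3bos, Igf2 and Igf2os, and Tbx3 and Tbx3os2 are named as sense and antisense partners, which the strand-specific libraries and counting were set up to keep apart. Pairs that fell included Fgf4 and Fgf15, Zic2 and Zic5, and Foxd3 and Gm12688.

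GATA factors recognise the letters GATA followed by A or G, most often with A or T before them. The 250 bases upstream of RefSeq gene starts (GRCm38.p6) were available for 10054 tested genes, 227 of those that rose and 85 of those that fell, and were searched on both strands. AGATAA was found upstream of 11.01% of genes that rose, 12.9% of genes that fell and 7.04% of all. TGATAA was found upstream of 7.93%, 8.24% and 4.42%, respectively, and the longer AGATAAG, whose matches are also matches of AGATAA, upstream of 6.17%, 5.88% and 2.11%. Both directions thus had a higher share than all genes, and the search, chosen after the values were seen, was not tested. Most called genes held no such match in this window. To show what the matches look like, 3 genes that rose and 1 that fell are printed 5′ to 3′ on the strand of the gene, with every match of the first 2 motifs, on either strand, in capitals.
Gip (chr11:96024295-96024544, plus strand): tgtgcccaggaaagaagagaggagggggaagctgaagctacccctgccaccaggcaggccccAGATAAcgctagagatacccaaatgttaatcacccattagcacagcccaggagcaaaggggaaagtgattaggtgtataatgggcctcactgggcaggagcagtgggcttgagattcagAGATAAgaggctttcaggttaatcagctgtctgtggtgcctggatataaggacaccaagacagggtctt
Fgf3 (chr7:144838362-144838611, plus strand): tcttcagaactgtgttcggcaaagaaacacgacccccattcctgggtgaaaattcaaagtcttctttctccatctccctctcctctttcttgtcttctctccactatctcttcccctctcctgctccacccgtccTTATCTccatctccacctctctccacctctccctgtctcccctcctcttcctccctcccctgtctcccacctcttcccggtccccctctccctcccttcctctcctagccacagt
Dab2 (chr15:6299539-6299788, plus strand): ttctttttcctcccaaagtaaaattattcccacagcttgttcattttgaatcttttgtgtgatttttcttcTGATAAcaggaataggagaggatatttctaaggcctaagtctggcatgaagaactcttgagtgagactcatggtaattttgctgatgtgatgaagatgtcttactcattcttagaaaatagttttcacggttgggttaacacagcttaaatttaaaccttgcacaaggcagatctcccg
Nr5a2 (chr1:136960449-136960698, minus strand): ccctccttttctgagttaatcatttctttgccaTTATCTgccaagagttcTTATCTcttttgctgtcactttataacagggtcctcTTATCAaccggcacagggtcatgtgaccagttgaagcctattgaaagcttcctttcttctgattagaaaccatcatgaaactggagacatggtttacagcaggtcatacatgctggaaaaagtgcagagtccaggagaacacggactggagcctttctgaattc

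The first bases of these matches lay at -188 and -69 from the gene start in Gip, at -115 in Fgf3, at -179 in Dab2 and at -217, -200 and -164 in Nr5a2, counting the base before the start as -1. Gip, Fgf3 and Dab2 rose by 3.70, 3.21 and 2.66 on the log2 scale, and Nr5a2 fell by 1.43. The strands and spacing differ among the 4 windows, with the matches of Fgf3 and Nr5a2 reading as the reverse complement.

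To place the 16 h levels in the series, the group means of the same genes were set beside those of later times and of XEN cells, without a test. Levels at 16 h were for many PrE genes a small part of those reached later. At 16, 48 and 168 h, respectively, Sox17 averaged 67.8, 144 and 283 TPM and Gata4 63.4, 242 and 413 TPM. Lamb1 went from 226 TPM at 16 h to 4162 TPM at 168 h, and Col4a1 from 123 to 7706 TPM. Dab2 and Cubn were at 12.5 and 1.29 TPM at 16 h and at 713 and 298 TPM at 48 h.

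Other genes, chosen for this pattern, had their highest mean of the series at or near 16 h. Dnmt3a, which averaged 234 TPM at 16 h, was at 93.8 TPM by 48 h and 15.4 TPM by 168 h, against 32.4 TPM before Dox. Calcoco2 went from 195 TPM at 16 h to 0.842 TPM at 168 h, Gip from 13.7 to 0.298 TPM, Slc26a10 from 71.2 to 3.82 TPM and Cpn1 from 49.4 to 0.139 TPM. In XEN cells the last 4 genes averaged 0.238, 0.09105, 4.65 and 3.11 TPM. The blood genes Lmo2 and Gata1 were at 6.297 and 4.48 TPM at 16 h and at 0.298 and 0.0237 TPM at 168 h, whereas Runx1 went from 22.3 TPM at 16 h to 56.1 TPM at 48 h.

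**Figure D5:**
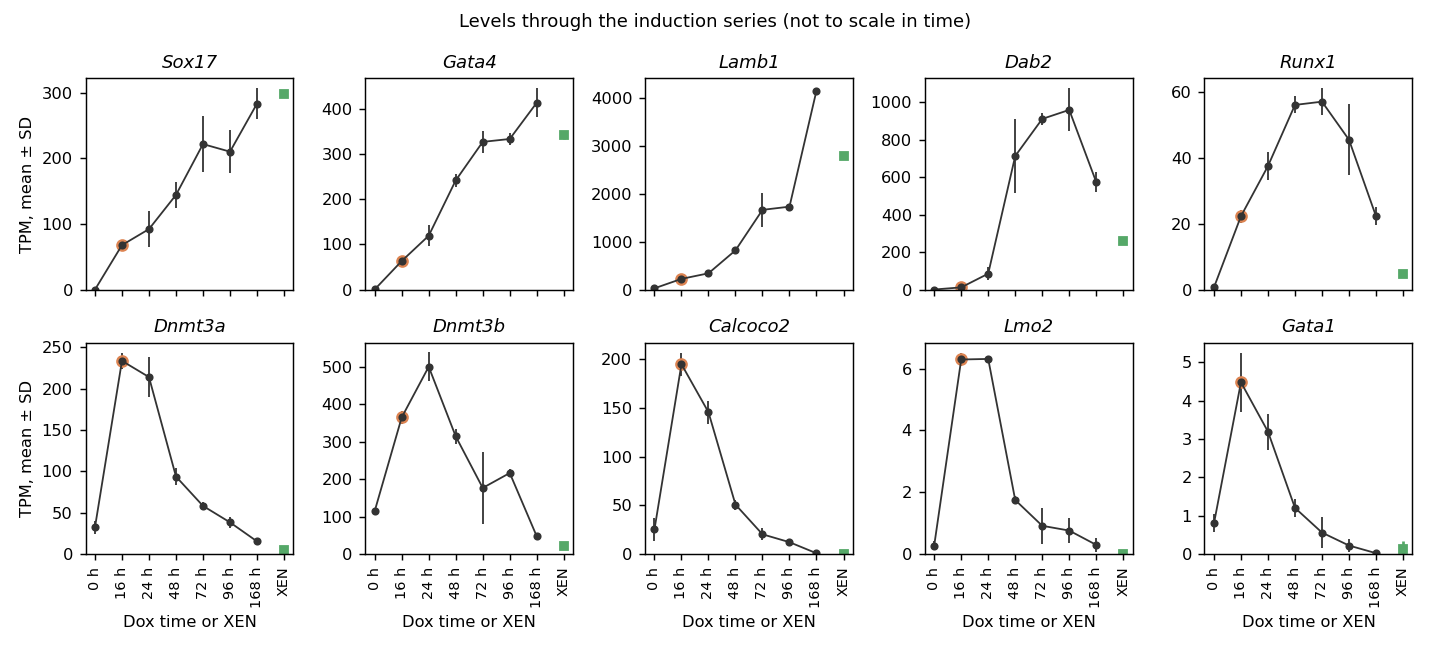
Mean TPM (y axis, with SD as bars) of 10 genes called at 16 h through the Dox series and in XEN cells (x axis, groups not spaced by time), with the 16 h point in orange and XEN cells as green squares. Sox17, Gata4, Lamb1 and Dab2 lie far higher after 16 h than at it, while Dnmt3a, Calcoco2, Lmo2 and Gata1 are back near or under their untreated level by 168 h.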

How the data were processed

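Stranded polyA RNA-seq libraries of inducible ES cells were prepared by the authors, who mapped read pairs with STAR (genome build mm10), estimated gene levels by RSEM with a strand-specific setting and deposited the TPM, leaving out outliers seen in a principal component analysis. Versions and the gene annotation are not given in the sources used here. TPM keeps no read number, so library depth is unknown and the spread between replicates is the error used. The methods describe 3 independent replicates. A second deposited table, of 12 siRNA libraries, was not used here.

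Of rows that share a symbol (60 symbols), only that of highest mean was used. Genes averaging at least 1 TPM at 0 h or 16 h were tested as log2(TPM + 1) with limma 3.58.1 (R 4.3.3; moderated with the trend and robust options of eBayes), with 1 coefficient per group over all 23 libraries of the induction series, so that 16 h and 0 h share the estimate of spread with the other groups. P-values were adjusted by Benjamini-Hochberg. On simulated data with 200 changed genes among 13509, 97.0% of log2 changes of 2 were recovered with 2 false calls, and 94.5% of log2 changes of 1.5 with 1 false call. The simulated noise was normal, with the same SD for a gene in all groups. Recovery of changes nearer the fold minimum, or with a spread that differs between groups, was not simulated.

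Members and gene lists were chosen with earlier results of these data known. Named were the genes of those lists, the 15 largest rises and falls among called genes without overlap that averaged at least 5 TPM in 1 group, the 10 largest gains and losses of TPM, up to 10 genes under 1 TPM in all 0 h libraries and at 5 TPM or more in all 16 h libraries, and 2 genes on each side of the filter. Some genes that this rule names are not reported here and were left out of the list counts. Other genes are marked as named after their values were seen. Of the mitochondrially encoded list none was in the table, and of 10 two-cell-like genes 0 passed the filter. Replicate numbers were not taken as pairs, and a fit with them as a block was an alternative. Other alternatives were the 6 libraries alone, median-of-ratios rescaling, no filter, a filter at 5 TPM, 0.1 as pseudocount, no fold minimum, an adjusted p under 0.01, and each library left out. Coordinates came from GENCODE M21 (mm10) and promoter sequences from RefSeq (GRCm38.p6). Tables were made with Python 3.11.15 and pandas 2.3.3.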

Additional observations from a re-analysis of the deposited data

How the results depend on the processing

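The count of 297 genes higher and 121 lower stayed within 1.5 times under each alternative but one: without the fold minimum it was 1194 and 784. Leaving out each library in turn gave 271 to 312 higher and 97 to 153 lower. The lowest count of each came without replicate 3 of 16 h, and the highest without replicate 3 of 0 h. The fit on the 6 libraries gave 299 and 118, of which 292 and 113 were shared, median-of-ratios rescaling 288 and 132, no filter 292 and 111, a mean of at least 5 TPM 208 and 86, a pseudocount of 0.1 421 and 171, and an adjusted p under 0.01 281 and 104. Rescaling moved the median log2 fold change of all genes from 0.02 to -0.01.

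With the replicate number as a block, 295 genes were higher and 119 lower, all of them also called without it. Deviations from the group means correlated at 0.0199, 0.0984 and 0.134 between libraries of the same number (mean 0.0840). The average between others, -0.0418, is largely fixed by that mean, because each group was centred on its own mean. These values therefore cannot decide whether the numbers pair the libraries, and the main fit did not treat the numbers as pairs. Chosen after seeing the data, a fit without replicate 3 of both groups, where fibroblast markers were highest, gave 278 and 121 (251 and 91 shared), and a fibroblast score as a covariate 298 and 124 (276 and 105 shared). No gene whose log2 fold change is given changed direction in any of these fits. Calls lost without 1 library are given beside each gene with a printed log2 fold change, and Gm45886, Gm960, Syt8 and Rpl30-ps9 also lost theirs. Eras, Id3, Lef1, Myc, Nodal, P4ha2, Rarg and Spry2, all under the fold minimum, passed it without at least 1 of the libraries. Unknown depth limits what can be said of genes near 1 TPM.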

Other observations

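Beyond the lists, whole gene families were counted by symbol, chosen after the values were seen and without a test. Ephrins, membrane-bound ligands of Eph receptors, had 3 of 7 tested genes called higher (against 2.20% of all genes) and 0 lower, with a family median log2 fold change of 0.24. Efna3 averaged 6.54 TPM at 0 h and 34.5 TPM at 16 h (log2 fold change 2.23 ± 0.11, adjusted p = 2.08e-11 by limma), its neighbour Efna4 15.6 and 57.4 TPM (log2 fold change 1.82 ± 0.10, adjusted p = 5.68e-11) and Efnb2 4.31 and 22.1 TPM (log2 fold change 2.12 ± 0.19, adjusted p = 1.06e-07). Among 7 Eph receptors only Ephb3 was called, and it rose (log2 fold change 1.199 ± 0.11, adjusted p = 2.31e-07), against 2.20% of all genes. Of 3 tested neuregulins, ligands of ERBB receptors, 2 rose (against 2.20% of all genes), Nrg1 from 2.26 to 14.8 TPM and Nrg2. The latter averaged under 1 TPM at 0 h and passed the filter only through its 16 h level. Of 3 tested ERBB receptors, 0 were called by limma. Over all FGF ligands, 2 of 10 tested rose and 4 fell (against 2.20% and 0.896% of all genes). The latter included Fgf17 (log2 fold change -1.44 ± 0.17, adjusted p = 7.38e-06), besides Fgf4 and Fgf15. Fgf18 was called (log2 fold change -1.01 ± 0.27, adjusted p = 0.0143), but its call was lost without replicate 1 or 2 of 0 h or replicate 3 of 16 h (log2 fold change -0.80, -0.94 and -0.84). Of 6 BMP ligands, Bmp6 (log2 fold change 2.39 ± 0.11, adjusted p = 7.8e-12) and Bmp8a (log2 fold change 1.16 ± 0.16, adjusted p = 4.45e-05) rose, against 2.20% of all genes. Both averaged under 1 TPM at 0 h.

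Some further rises are named after their values were seen, as single genes. Atp4a, the catalytic subunit of the gastric proton pump, stood at 2.996, 1.67 and 1.54 TPM at 0 h and 15.1, 14.5 and 21.2 TPM at 16 h (log2 fold change 2.56 ± 0.18, adjusted p = 6.62e-09 by limma). Car4, a membrane-bound carbonic anhydrase, stood at 4.49, 3.94 and 1.197 TPM at 0 h and 39.7, 37.7 and 43.2 TPM at 16 h (log2 fold change 3.397 ± 0.38, adjusted p = 3.37e-06). For both genes the groups did not overlap. Fut2, a fucosyltransferase of the gut surface, rose from 0.193 to 4.52 TPM (log2 fold change 2.19 ± 0.14, adjusted p = 1.03e-09). Pyy, an intestinal peptide hormone, was called (log2 fold change 1.73 ± 0.45, adjusted p = 0.0122) but not without replicate 2 or 3 of 16 h (adjusted p = 0.0507 and 0.0521). At 168 h Atp4a and Fut2 averaged 0.0881 and 0.0136 TPM, and Car4 44.5 TPM. Hmx3, a homeobox factor of the inner ear, stood at 0, 0 and 0.152 TPM at 0 h and 9.02, 10.3 and 10.6 TPM at 16 h (log2 fold change 3.38 ± 0.16, adjusted p = 2.08e-11) and at 0.0643 TPM at 168 h.

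Gata6os, annotated beside Gata6 on the other strand, was listed at 0 TPM in all 0 h libraries and stood at 9.16, 9.13 and 13.5 TPM at 16 h. It averaged 138 TPM at 168 h and 66.98 TPM in XEN cells. Whether the cassette contributes reads to this gene was not tested. The pseudogene Rpl30-ps9 was listed at 0 TPM in all 0 h libraries and in 1 of the 16 h libraries, with 29.3 and 9.22 TPM in the other two, and near-identical copies make such values uncertain.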
